A study of Mus musculus with 6 samples.

Results

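The granins and the enzymes that mature prohormones were followed across 6 libraries of cells sorted from the mouse colon. The set holds 9 named genes, the granins Chga, Chgb, Scg2 and Scg3, the chaperone Scg5, the proteases Pcsk1 and Pcsk2, the inhibitor Pcsk1n and the exopeptidase Cpe. Every probe set whose only gene symbol was one of these was taken. That gave 9 of the 45101 probe sets on the array, for 8 of 18193 genes measured, because Cpe has 2 probe sets and Pcsk2 was not analysed here. The libraries came from the Mapttm1(EGFP)Klt/J strain, in which EGFP is expressed from Mapt, the gene of the microtubule protein tau. They comprise 3 libraries of the EGFP-positive sort, which the labels call colonic neurons, and 3 of the EGFP-negative sort, called myenteric cells, each pooled from 2, 4 or 6 mice. All mice of both groups had fluorescent cholera toxin subunit B injected into the celiac ganglion and were killed 3 to 4 days later. The age of the mice and the zygosity of the allele are not given in the sources used here, and the sort rests on the activity of the Mapt locus.

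Granins are acidic proteins of the dense core vesicle, the organelle in which neurons and endocrine cells store peptides until a stimulus releases them. Neuropeptides are made as longer precursors that the convertases PC1/3 and PC2 cut after pairs of basic residues, after which carboxypeptidase E trims the basic residues left at the new ends. In the gut wall this machinery is used by enteric neurons and, in the mucosa, by enteroendocrine cells, for which chromogranin A is a standard marker.

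Values are the deposited log2 expression values, listed by replicate from 1 to 3, EGFP-positive first. A unit on this scale is a doubling, and the level of one probe set cannot be set against that of another. Background, read from probe sets for the bacterial transcript TrpnX, ran from 1.00 to 1.48. Several libraries stood apart. EGFP-positive replicate 3 was the only library in which Mapt exceeded background by more than 1 unit. Mapt read 1.43, 1.32 and 5.55 against 1.44, 1.64 and 1.38. In EGFP-positive replicates 1 and 2 it was within background, where values carry no order. There Mapt neither bears out the sort nor goes against it. The 19 measured pan-neuronal genes averaged 6.56 in EGFP-positive replicate 3 and 3.46 to 4.05 in the other 5 libraries, and all 19 were highest in that library. EGFP-negative replicate 1 had 6182 probe sets above a log2 value of 6, against 7135 to 7621 in the others. Its BioB hybridisation controls averaged 10.90, against 7.02 to 8.93. In EGFP-negative replicate 2 the Gapdh control read 2.47 higher at its 3′ than at its 5′ end, against 0.77 to 1.29 in the others, and the actin control 2.85, against 1.55 to 2.61, a sign of RNA quality. The part of these measures in the results was not tested, and differences without each library are plotted for every gene. The material is bulk RNA, so fewer cells of a type and less RNA per cell cannot be told apart.

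All 8 measured genes had their highest value in EGFP-positive replicate 3, and 7 of them exceeded every other library there by at least 1 unit. Over all genes, 19.6% were highest in that library and 3.40% exceeded every other library by at least 1 unit. None of the 8 passed the test between the groups (limma, Benjamini-Hochberg adjusted p = 1.00 for each). The background of such calls was 0% of 18193 genes, while 893 genes (4.91%) had an unadjusted limma p under 0.05, among them 0 of the 8. With the same-numbered libraries as a block, 7.39% of all genes and 0 of the 8 did so. The groups did not overlap for 1 of the 8, Chga, which was higher in all 3 EGFP-positive libraries. Over all genes 3.07% were higher and 6.04% lower in this way. The median log2 difference, EGFP-positive minus EGFP-negative, was 0.85 for the 8 genes and -0.02 for all genes. Without EGFP-positive replicate 3 the median of the 8 genes was -0.02, with 4 genes above 0 and 4 below. Without EGFP-negative replicate 1 it was 0.52, with 6 above 0 and 2 below, and without EGFP-negative replicate 2 it was 0.97, with 7 above 0 and 1 below.

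**Figure D1:**
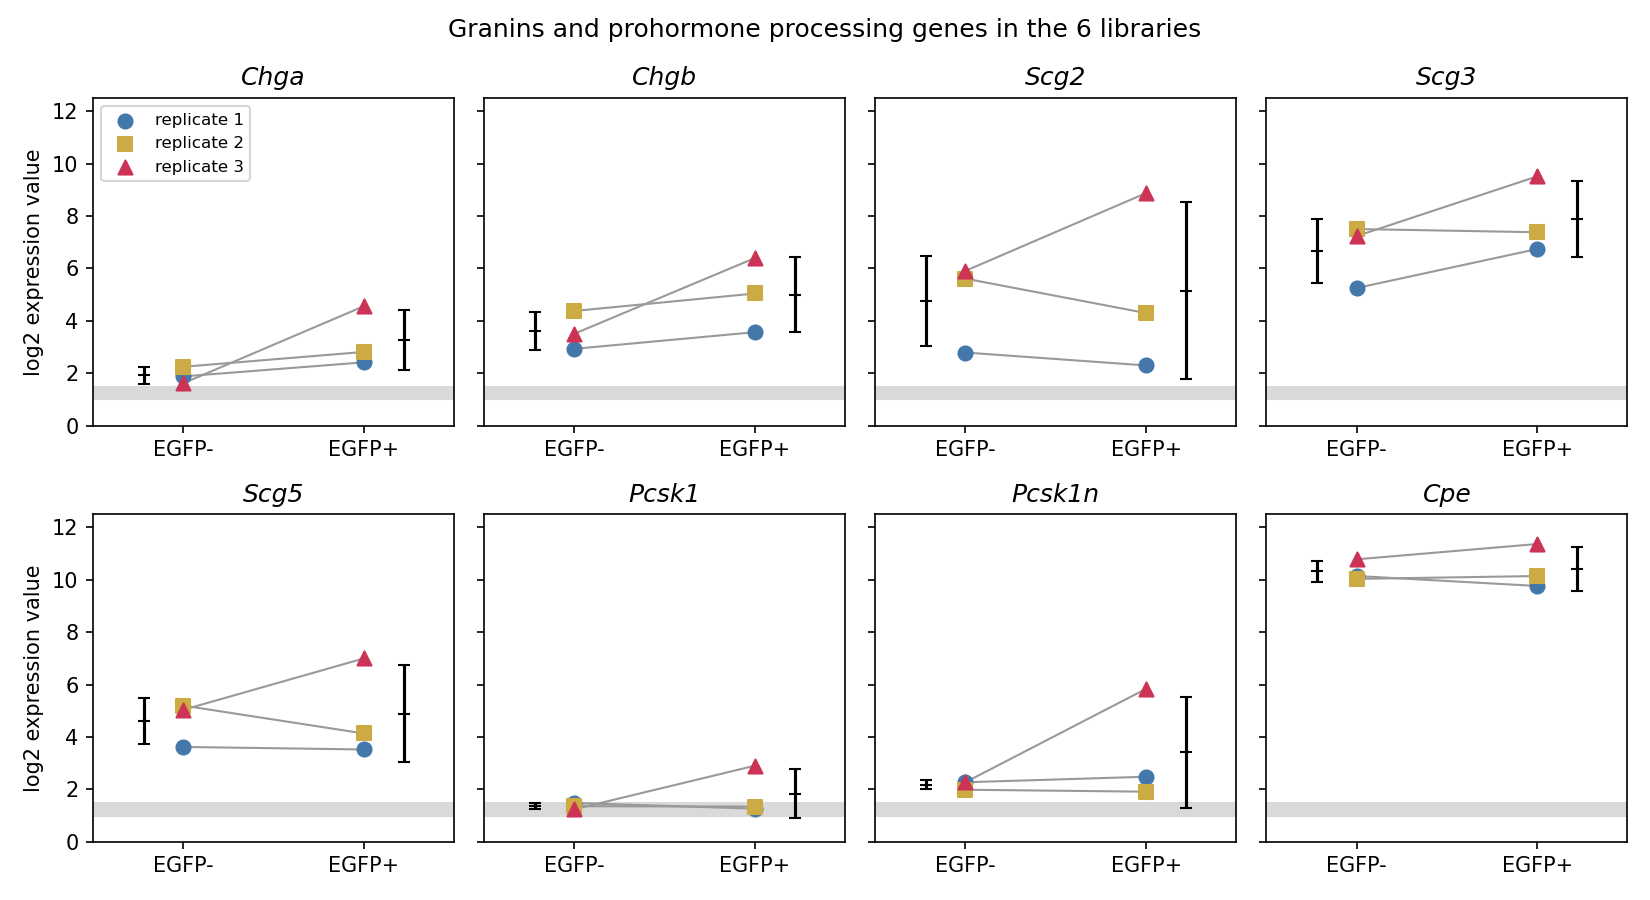
Deposited log2 expression values (vertical axis) of the 8 genes in the EGFP-negative and EGFP-positive libraries. Symbols and colours mark replicates 1 to 3, grey lines join libraries with the same number, black bars are means ± SD (n = 3) and the grey band is the TrpnX background from 1.00 to 1.48. The red triangle of EGFP-positive replicate 3 is the highest point in every panel, and Chga is the gene whose groups do not overlap.

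The promoters of several of these genes hold the cyclic AMP response element, the binding site of the factor CREB. Any part of this element in the levels of the genes was not tested. The motif TGACGTCA, which reads the same on both strands, was found in 3 of the 8 promoters listed for the set, those of Chgb, Scg2 and Pcsk1. These 8 promoters are those of the 9 named genes other than Cpe, and so include Pcsk2, which has no expression value here. It was found in 1.79% of all 32851 promoters in the RefSeq table, each 250 bases before to 50 after the start. The shorter motif TGACG, which lies within it, was found on either strand in 7 of these 8, all but that of Pcsk1n, and in 20.8% of all promoters. In Scg2, Chgb and Pcsk1 the element began 68, 72 and 78 bases before the start, and in Chga a TGACG began 44 bases before it. The stretches below are from RefSeq, build GRCm38.p6, written 5′ to 3′ on the strand of the gene, with TGACGTCA, or for Chga TGACG, in capitals. They lie at chr1:79440061-79440120 on the minus strand for Scg2, chr2:132781544-132781603 on the plus strand for Chgb, chr13:75089753-75089812 on the plus strand for Pcsk1 and chr12:102554871-102554930 on the plus strand for Chga, all upstream of the start. A match is a description of the letters and not of binding.
Scg2: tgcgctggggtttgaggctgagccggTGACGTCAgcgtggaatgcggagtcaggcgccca
Chgb: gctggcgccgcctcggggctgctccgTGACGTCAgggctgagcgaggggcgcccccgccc
Pcsk1: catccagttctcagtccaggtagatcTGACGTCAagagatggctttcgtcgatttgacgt
Chga: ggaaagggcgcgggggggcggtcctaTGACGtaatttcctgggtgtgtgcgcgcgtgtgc

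The chromogranins were higher on the EGFP-positive side of every same-numbered pair. Chga, chromogranin A, which packs cargo into the vesicle and is itself cut into peptides, read 2.42, 2.81 and 4.56 in the EGFP-positive libraries and 1.88, 2.25 and 1.62 in the EGFP-negative ones. The lowest positive library lay above the highest negative one, although 5 of the 6 values were under 3 on a scale whose background reaches 1.48. The means were 3.26 ± 1.14 (SD, n = 3) and 1.92 ± 0.32 (SD, n = 3), a log2 difference of 1.35 (SE 0.59). Within pairs 1, 2 and 3 Chga differed by 0.54, 0.57 and 2.94. Without EGFP-positive replicate 3 the difference was 0.70 (SE 0.25), and the groups did not overlap, as for 6.99% of all genes in this direction with that library left out. Without EGFP-negative replicate 1 the difference of Chga was 1.33 (SE 0.73), and without EGFP-negative replicate 2 it was 1.51 (SE 0.71).

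Chgb, chromogranin B, a related granin of the same vesicles, read 3.57, 5.04 and 6.40 against 2.93, 4.38 and 3.51. Its groups overlapped, since EGFP-positive replicate 1 lay below EGFP-negative replicate 2. The log2 difference was 1.40 (SE 0.78), and within pairs it was 0.64, 0.67 and 2.89, close to the values of Chga. Without EGFP-positive replicate 3 it was 0.70 (SE 0.63), and without EGFP-positive replicate 1, 2.11 (SE 0.61). Leaving out EGFP-negative replicate 1 gave 1.06 (SE 0.91), and EGFP-negative replicate 2, 1.78 (SE 0.89). Chga and Chgb were the 2 of 8 genes higher in all 3 pairs, as were 11.3% of all genes.

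The secretogranins varied more between replicates than between the groups. They were not alone in this, since the SD of the EGFP-positive libraries also exceeded the log2 difference for Chgb, Pcsk1, Pcsk1n and Cpe. Scg2, secretogranin II, the precursor of the peptide secretoneurin, read 2.30, 4.29 and 8.87 against 2.79, 5.61 and 5.91. Its lowest and highest values were both EGFP-positive libraries, a span of 6.58 units, the widest of the 8 genes. EGFP-positive replicate 3 exceeded the next library, EGFP-negative replicate 3, by 2.97, while pairs 1 and 2 went the other way, by -0.49 and -1.31. The log2 difference was 0.39 (SE 1.85). It turned to -1.47 (SE 1.20) without EGFP-positive replicate 3 and to -0.60 (SE 2.06) without EGFP-negative replicate 1.

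Scg3, secretogranin III, which tethers chromogranin A to the vesicle membrane, was well above background in every library. It read 6.74, 7.38 and 9.51 against 5.25, 7.50 and 7.23. EGFP-negative replicate 1 was the lowest library, and the other 2 negative libraries lay on either side of EGFP-positive replicate 2. The log2 difference was 1.22 (SE 0.93), with pair differences of 1.49, -0.12 and 2.28. It was 0.40 (SE 0.77) without EGFP-positive replicate 3 and 0.51 (SE 0.89) without EGFP-negative replicate 1.

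Scg5 encodes 7B2, the chaperone that PC2 needs to mature and that also inhibits it. It read 3.53, 4.14 and 7.00 against 3.62, 5.20 and 5.04, so EGFP-positive replicates 1 and 2 were below EGFP-negative replicates 2 and 3. The order of the libraries was close to that of Scg2, and the pair differences were -0.10, -1.06 and 1.96. The log2 difference of 0.27 (SE 1.01) turned to -0.79 (SE 0.56) without EGFP-positive replicate 3 and to -0.23 (SE 1.14) without EGFP-negative replicate 1. The client of 7B2, Pcsk2, has no value here.

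Of the convertase genes, Pcsk1, which encodes PC1/3, was at background in all but 1 library. It read 1.27, 1.35 and 2.91 against 1.48, 1.36 and 1.25. EGFP-positive replicate 3 was the one library clearly above background. The other 5 values lay within or at the edge of the TrpnX range, where they carry no order and no exact step can be read against them. The log2 difference was 0.48 (SE 0.47), and -0.06 (SE 0.14) without EGFP-positive replicate 3. It was 0.54 (SE 0.57) without EGFP-negative replicate 1. Pcsk1n encodes proSAAS, the inhibitor of PC1/3 and a granin-like precursor. It read 2.49, 1.92 and 5.84 against 2.28, 1.99 and 2.28. Here EGFP-positive replicate 3 exceeded the next library by 3.35, a 10.2-fold step, and the other 5 libraries lay within 0.57 of each other. The log2 difference of 1.23 (SE 1.04) was 0.02 (SE 0.23) without that library and 1.28 (SE 1.30) without EGFP-negative replicate 1.

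Cpe was bright in all libraries and had the narrowest span over the 6, at 1.60 units, next to 1.66 for Pcsk1. It read 9.76, 10.14 and 11.36 against 10.14, 10.03 and 10.78, so that replicate 3 was the highest in both groups. The means were 10.42 ± 0.84 (SD, n = 3) and 10.32 ± 0.40 (SD, n = 3), a log2 difference of 0.10 (SE 0.46). Without EGFP-positive replicate 3 it was -0.37 (SE 0.29), without EGFP-negative replicate 1 it was 0.02 (SE 0.57), and without EGFP-negative replicate 2 it was -0.04 (SE 0.56). The second Cpe probe set, of a type that can cross-hybridise, stayed between 0.95 and 1.38, at background in all 6 libraries, and gave a difference of 0.04.

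**Figure D2:**
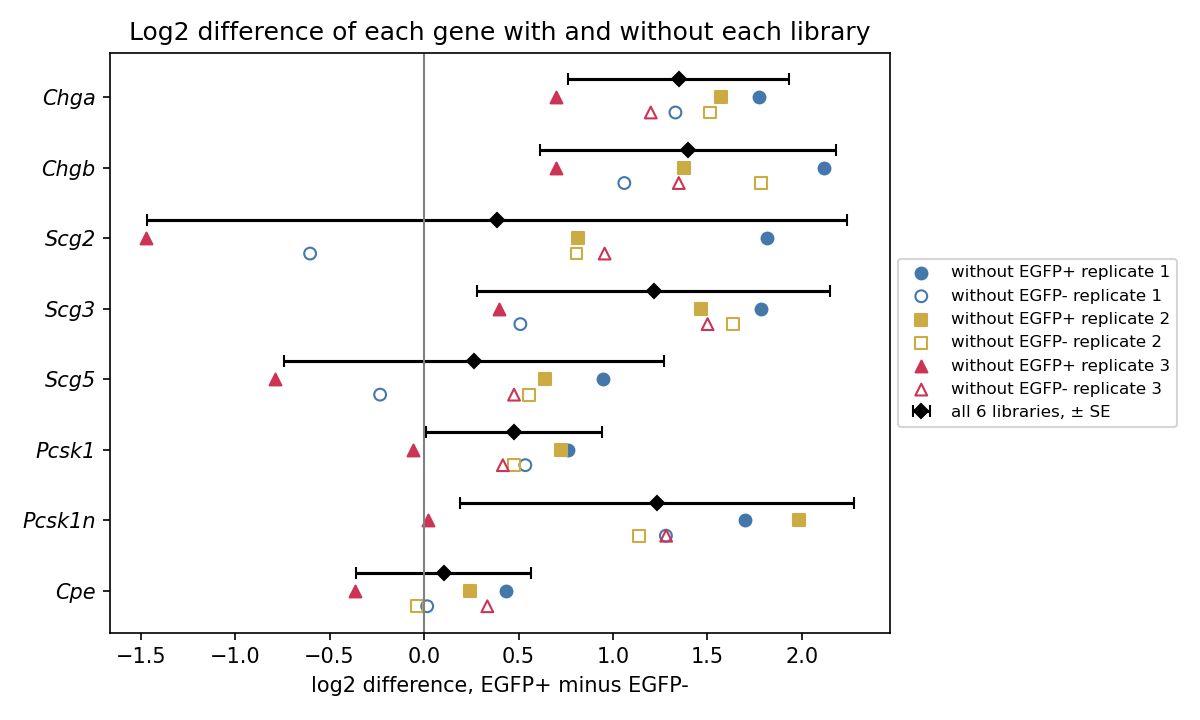
Log2 difference, EGFP-positive minus EGFP-negative (horizontal axis), of each gene with all 6 libraries (black diamond ± SE) and with each library left out in turn (coloured symbols, filled for EGFP-positive, open for EGFP-negative). Without EGFP-positive replicate 3 (filled red triangle) the values of Scg2, Scg5, Pcsk1 and Cpe are below 0, Pcsk1n is at 0.02, and Chga and Chgb are at 0.70.

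The genes whose levels ran most like those of the set were sought among 1205 genes that reached 6 in a library and spanned at least 2 units, conditions that Chgb, Scg2, Scg3 and Scg5 met. The measure was Pearson's r over 6 libraries, given as a description. Chgb, Scg2 and Scg5, and matches such as Snap25 and Resp18, reached 6 in EGFP-positive replicate 3 alone, so the conditions themselves favour genes that peak there, and high values of r follow in part from them. For Scg5 the 3 closest were Snap25 (r = 0.995), a membrane fusion protein of vesicle release, Scg2 (r = 0.989) and Resp18 (r = 0.987), another protein of endocrine secretory granules. Resp18 read 2.06, 3.11 and 7.49 against 2.73, 4.44 and 3.94. For Scg2 they were Tspyl4 (r = 0.995), Scg5 and Zwint (r = 0.986). For Scg3 they were Akap11, Peg3 and Agmo, each with r between 0.994 and 0.995. Peg3, an imprinted transcription factor gene, read 6.64, 7.45 and 9.27 against 5.20, 7.49 and 7.42. For Chgb they were Tmod2 (r = 0.986), a tropomodulin of neurons, Tanc2 (r = 0.976) and Kif21a (r = 0.974), a kinesin. Among the 4 genes themselves r ran from 0.786 for Chgb and Scg2 to 0.989 for Scg2 and Scg5.

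The other genes of the regulated secretory pathway were read from 7 lists with 99 genes, of which 93 were measured. None of the 93 passed (limma, Benjamini-Hochberg over all genes), and 4 had an unadjusted p under 0.05, against 4.91% of all genes. With the same-numbered libraries as a block 8 did so, against 7.39% of all genes. The groups did not overlap for 3 that were higher (3.23%, against 3.07% of all genes) and 2 that were lower (2.15%, against 6.04%). Their median log2 difference was 0.12, and 58 of the 93 had a difference above 0, as did 46.4% of all genes. Of the 93, 35 (37.6%) were highest in EGFP-positive replicate 3, against 19.6% of all genes.

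Genes listed beside the members did not share one pattern. The list of other granins and granin-like prohormones also holds Nucb1, Nucb2 and Npff, which are not granins. Vgf, a granin-like prohormone of neurons, read 1.56, 1.39 and 5.62 against 1.88, 1.44 and 2.11, high in the same library as Pcsk1n. Nucb2, the precursor of nesfatin, read 6.91, 7.49 and 6.36 against 7.26, 7.75 and 7.35. The 6 other convertases measured had differences on both sides of 0, from -0.64 for Pcsk5 to 0.55 for Pcsk6. Pcsk5, a convertase of growth factor precursors, read 6.85, 7.50 and 5.57 against 6.29, 8.05 and 7.50, so EGFP-positive replicate 3 was its lowest library. Among 8 other metallocarboxypeptidases, 4 had differences above 0 and 4 below. The carboxypeptidase-like Cpxm1 was lowest in EGFP-positive replicate 3, at 5.23, 5.36 and 2.29 against 2.90, 3.59 and 5.16. Cpxm2, its relative, was highest there, at 3.89, 5.01 and 6.72 against 3.20, 5.07 and 5.80.

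Of 8 genes of peptide end modification and other peptide proteases, 3 had differences above 0 and 5 below, and the median was -0.12. Over all genes 46.4% had differences above 0. The 2 with the largest differences, Pam and Qpct, were above background in all libraries. Pam, which amidates peptides after Cpe has acted, read 6.50, 7.82 and 7.93 against 5.82, 4.10 and 7.52. Its groups overlapped only through EGFP-negative replicate 3, and the log2 difference was 1.60 (limma adjusted p = 1.00). Qpct, the glutaminyl cyclase, read 4.47, 6.48 and 6.97 against 5.12, 7.51 and 7.53, lower on the EGFP-positive side of all 3 pairs.

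Of the 18 genes of vesicle formation and maturation, 13 had differences above 0, against 46.4% of all genes, and the median was 0.21. Cyb561, the electron carrier of the vesicle membrane that supports amidation, read 5.64, 5.60 and 5.60 against 4.23, 5.36 and 4.55. All 3 EGFP-positive libraries were higher and nearly level, so Cyb561 did not peak in replicate 3 as the granins did. Slc18a2, which loads monoamines into vesicles, read 3.86, 5.86 and 8.08 against 2.72, 5.83 and 5.61. Sort1, the sorting receptor sortilin, read 6.32, 5.82 and 7.21 against 4.42, 5.75 and 6.32.

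Of the 28 genes of regulated release, 22 had differences above 0, the median was 0.31, and 14 were highest in EGFP-positive replicate 3. Over all genes 46.4% had differences above 0 and 19.6% were highest there. Syt4, a synaptotagmin of dense core vesicles, read 2.08, 1.55 and 7.60 against 2.31, 2.23 and 2.71. Cadps, the priming factor CAPS, read 1.79, 1.61 and 6.79 against 2.22, 2.36 and 2.25. In both, the other 5 libraries were within 1.16 of each other, as for Pcsk1n. Rab27b, a small GTPase that docks secretory vesicles, and Syt7, a calcium sensor for their fusion, had groups that did not overlap. Rab27b read 4.12, 4.32 and 4.14 against 3.23, 3.40 and 2.65, a log2 difference of 1.10 (SE 0.22). Syt7 read 2.95, 2.79 and 3.07 against 2.58, 1.94 and 2.31. Neither passed, with a limma adjusted p = 0.951 for Rab27b and 0.986 for Syt7. Both had an unadjusted limma p under 0.05, as did 4 of the 93 pathway genes and 4.91% of all genes. Cyb561, Rab27b and Syt7 are the 3 pathway genes with higher, non-overlapping groups (3.23%, near the 3.07% of all genes). Npff and Baiap3, with differences of -0.19 and -0.11, are the 2 with lower ones (2.15%, against 6.04%).

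Of 21 peptide precursors measured, 11 had differences above 0, against 46.4% of all genes, and the median was 0.01. In EGFP-positive replicate 3, 10 of the 21 had their highest value, against 19.6% of all genes. Vip, the precursor of an inhibitory motor and secretomotor peptide, read 6.12, 6.95 and 9.18 against 3.14, 7.36 and 6.77. Its 6 libraries ranked in the same order as for Scg3, with EGFP-negative replicate 1 lowest and EGFP-positive replicate 3 highest. Pyy, a hormone of colonic endocrine cells, read 5.83, 6.95 and 2.68 against 2.81, 6.12 and 2.15, and so was low in the library where the granins were highest.

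**Figure D3:**
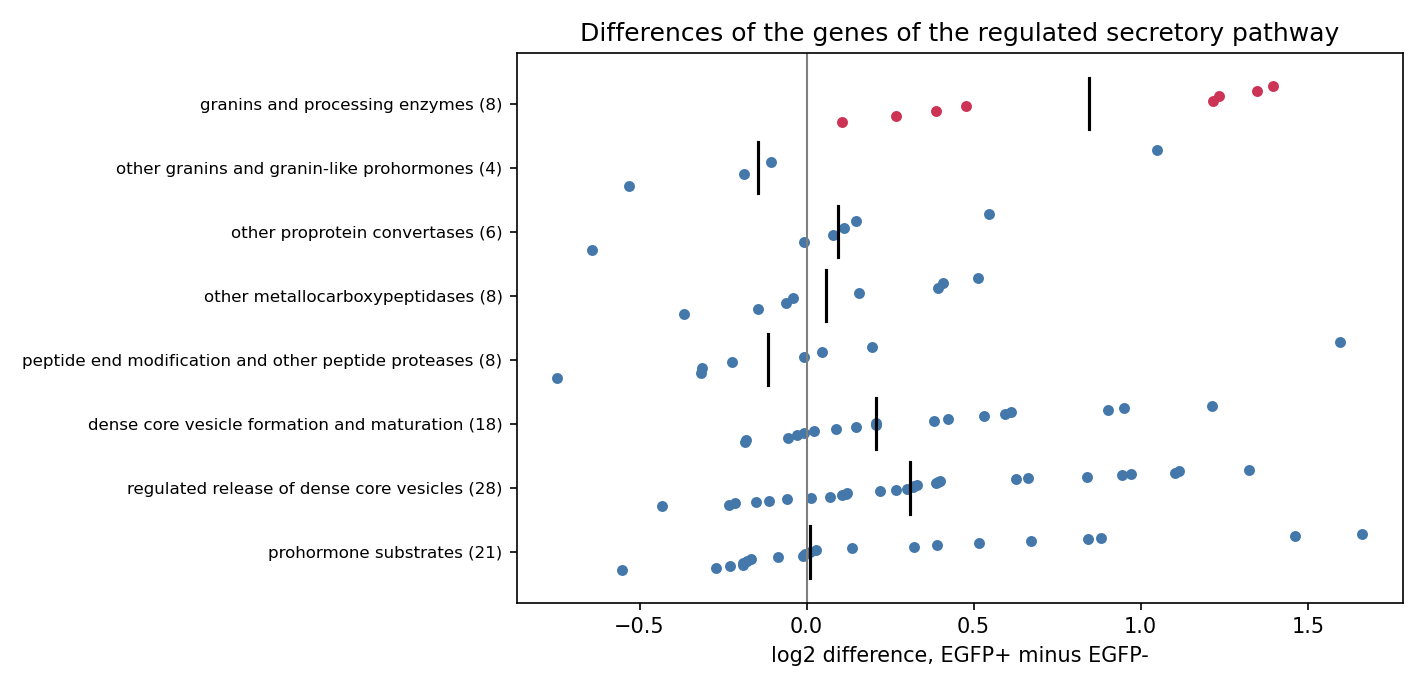
Log2 difference, EGFP-positive minus EGFP-negative (horizontal axis), of each measured gene (point) of the set (red) and of the 7 pathway lists (blue), with the number of genes in brackets and the median as a black bar. The medians run from -0.15 for other granins and granin-like prohormones to 0.31 for regulated release, and that of the set is 0.85. In the list with the lowest median, Vgf was at 1.05. The other 3 genes, Nucb1, Nucb2 and Npff, which are not granins, were below 0.

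Because granins are made by enteroendocrine cells as well as neurons, markers of the cells that the sort could hold were read beside them. The 14 measured enteroendocrine markers averaged 2.50, 3.00 and 1.70 in the EGFP-positive libraries and 2.38, 2.93 and 1.70 in the EGFP-negative ones. Of these, Neurog3, Pax6, Nkx2-2 and Lmx1a were at or below background in all 6 libraries. Neurod1, Insm1 and Cck stayed under 2 everywhere, as did Tph1, and Sct and Gcg reached 2.51 and 2.62. Insl5, an endocrine hormone of the colon, read 2.66, 5.97 and 0.84 against 2.17, 5.69 and 2.10. Nts, neurotensin, read 7.10, 6.41 and 1.33 against 7.42, 6.64 and 1.48. Isl1, a transcription factor also used by other cells, read 5.63, 6.73 and 5.04 against 6.31, 6.44 and 5.00. Insl5 and Nts thus followed the replicate number, and Pyy, Insl5 and Nts were all lower in EGFP-positive replicate 3, the library with the highest Chga and Chgb, than in EGFP-positive replicates 1 and 2. Pyy was also higher on the EGFP-positive side of all 3 pairs, as Chga and Chgb were, with a log2 difference of 1.46. Nts was highest in replicate 1 of each group and Insl5 and Pyy in replicate 2, so these markers did not run as one. The 12 epithelial markers averaged 8.29, 7.59 and 4.49 against 6.79, 7.41 and 5.73, higher on the EGFP-positive side in pairs 1 and 2 and lower in pair 3.

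Neuronal and glial markers were highest in the same library as the granins. The pan-neuronal mean was 3.48, 3.46 and 6.56 against 3.55, 3.82 and 4.05, so EGFP-positive replicates 1 and 2 held the lowest values and replicate 3 the highest. Syt1, a synaptic vesicle protein, read 1.89, 2.01 and 7.38 against 2.18, 2.61 and 2.43. Map2, which binds microtubules in dendrites, read 3.00, 3.63 and 7.13 against 2.37, 3.54 and 3.37. The 10 enteric glia markers averaged 6.88, 6.65 and 8.71 against 4.74, 6.30 and 5.85. All 10 were also highest in EGFP-positive replicate 3. All 3 EGFP-positive libraries were above all 3 EGFP-negative ones for 5 of the 10 glia markers. The same held for 0 of the 19 pan-neuronal genes and for 3.07% of all genes. Kcna1, a potassium channel gene of glia, read 8.98, 8.49 and 10.48 against 4.21, 7.58 and 7.01, and Cdh19, a glial cadherin, read 6.85, 7.70 and 9.48 against 3.67, 6.89 and 6.29. Macrophage markers ran the other way, at 6.65, 3.64 and 2.40 against 8.11, 8.34 and 6.77, lowest in EGFP-positive replicate 3. Lymphocyte and mast cell markers averaged 2.15, 1.64 and 1.44 against 2.48, 3.76 and 4.28. The part of any of these cells in the levels of the granins was not tested.

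The means of the muscle, connective tissue and vessel lists overlapped between the groups. Smooth muscle genes averaged 8.55, 8.17 and 10.15 against 8.96, 8.41 and 10.45, higher in replicate 3 of both groups, as Cpe was. Fibroblast genes averaged 9.97, 10.37 and 9.55 against 9.77, 10.75 and 10.65. Those of interstitial cells of Cajal averaged 6.23, 6.81 and 5.81 against 5.73, 7.68 and 7.35, those of endothelium 6.06, 6.87 and 4.88 against 6.24, 6.58 and 6.38, and those of mesothelium 9.44, 8.92 and 6.93 against 9.13, 8.50 and 7.19.

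**Figure D4:**
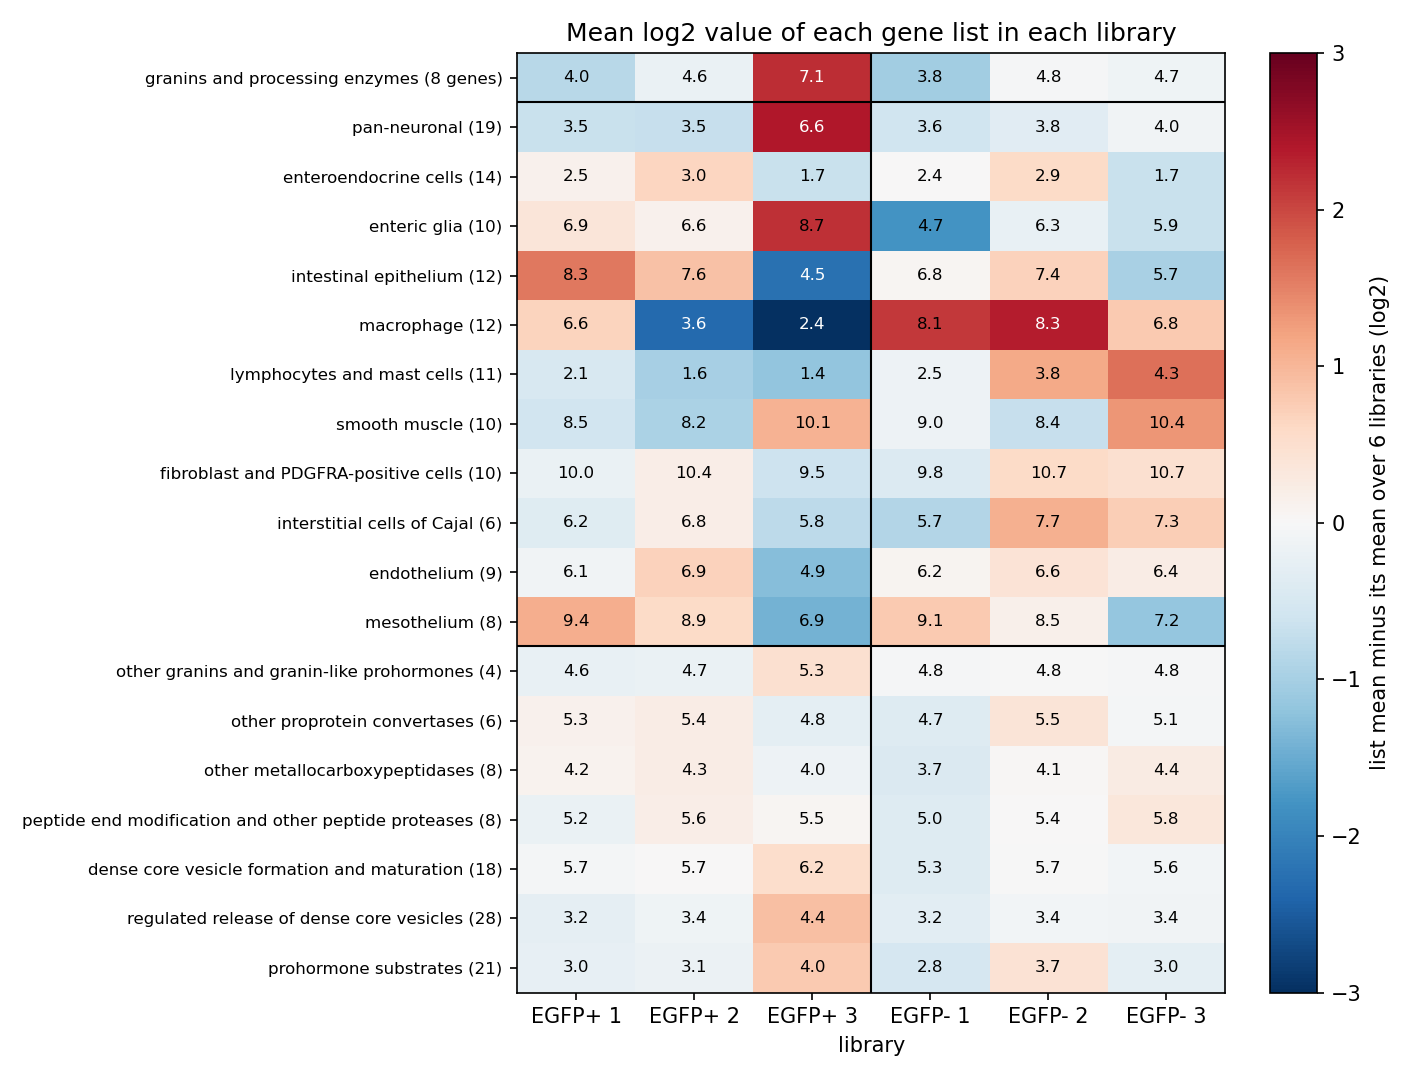
Mean log2 value (printed in each cell) of the 8 genes of the set, of the 11 cell type lists and of the 7 pathway lists in each library, with the number of genes measured in brackets. Colour is the list mean minus its own mean over the 6 libraries. The set, the pan-neuronal list and the glia list are reddest in EGFP-positive replicate 3, where the enteroendocrine and epithelial lists are blue.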

How the data were processed

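Total RNA of 6 sorted libraries, about 50 ng each, was hybridised to 1-colour Affymetrix mouse genome arrays, per the labels. The deposited values are log2 expression values made by the authors with RMA, per the submitters' processing notes. No source used here states its settings. Column medians of 1.91 to 1.99 and upper quartiles of 4.08 to 4.86 are unusual for quantile-normalised RMA, so a small difference between dim values should not be relied on. No depth exists for arrays, and their number limits the precision.

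Symbols came from the platform annotation, in which 34945 probe sets had 1 symbol, 932 several and 9160 none. The 64 control probe sets were left out. Each gene was represented by its brightest probe set. The fit used limma 3.58.1 in R 4.3.3 (lmFit, eBayes, two-sided, Benjamini-Hochberg, threshold 0.05), over 18193 genes and over all non-control probe sets. A check on simulated data with independent noise required only that known shifts were estimated with a small mean error. It does not show the power of the test in these libraries. P-values measure the spread of these pooled libraries. Figures used Python 3.11.15 and matplotlib 3.10.9.

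The members and lists were chosen with earlier results of these data known. Genes were named from those a rule allows: all members, the 2 largest absolute differences of each list, every enteroendocrine marker, Mapt and the 3 genes most like each eligible member. Cyb561, Rab27b, Syt7, Npff and Baiap3 were named after their values were seen, as was the search for TGACG. Deviations from the group means correlated across genes at 0.364, 0.325 and 0.415 for same-numbered libraries, and at -0.01 or below for others. Deviations cancel out within each group, so the negative values follow in part from the positive ones and add no separate support. The numbers were taken as pairs, a pairing that comes from the data. Alternatives covered normalisation, probe set choice, filters, variance models, array weights, a floor and leaving out each library.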

Additional observations from a re-analysis of the deposited data

How the results depend on the processing

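No member passed the threshold under any alternative run. With the replicate number as a block, which uses the pairing, 0 genes and 0 probe sets passed and the smallest adjusted p of a member was 0.691 (limma). The block changed no call. Of 125 member values under alternatives, 115 kept their direction and 10 reversed. The block, the variance models and the filter on level cannot change a gene's log2 difference. The probe set choices left every member but Cpe unchanged. Many of the 115 were thus fixed in advance and show no robustness. All 10 reversals came with array weights or a left-out library. With array weights Scg2 (-0.77), Scg5 (-0.51) and Cpe (-0.011) were below 0. Over the left-out libraries Scg2 ran from -1.47 to 1.82, Scg5 from -0.79 to 0.95, Pcsk1 from -0.058 to 0.76 and Cpe from -0.37 to 0.43. Chga, Chgb, Scg3 and Pcsk1n stayed above 0 in all alternatives run, Pcsk1n by only 0.02 without EGFP-positive replicate 3. The median of the set ran from -0.02 to 1.73 over the left-out libraries, against 0.85 with all 6. It was 0.33 with array weights, with 5 members above 0 and 3 below, and 0.39 among genes above the median level. Centring on 43 ribosomal protein genes shifted the median of all genes to 0.31 and that of the set to 1.17, where 2 members, Chga and Pcsk1, had groups that did not overlap, as did 27.9% of all genes in the higher direction. Among genes above the median level, which left out Chga, Pcsk1 and Pcsk1n, the count was 0, against 3.99% of all genes in the higher direction, and over the left-out libraries it was 1 to 2, against 6.34% to 7.37% of all genes. The number of genes past the threshold was 2 with values floored at the background (Mefv and Vac14) and 0 to 2 over the left-out libraries, with 2 (Ccr2 and Fermt3) without EGFP-positive replicate 1. These 4 were named after their values were seen. Pcsk1 and most values of Chga lie near background, where an array limits what can be read.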
